A study of Arabidopsis thaliana with 50 samples.

Results

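The transcriptome of med13 seedlings in long days was compared with that of Col-0 by mRNA sequencing. The libraries were chosen by their titles, med13 replicates 1 to 4 and col replicates 1 to 4, which makes 8 of the 50 libraries of the series. The study asked how the Mediator subunits MED12 and MED13 affect gene expression in Arabidopsis thaliana, after both came out of a screen for genes that a DNA-methylated reporter, SDC:GFP, needs in the morc1 mutant. med13 carried gct-2, a T-DNA insertion that the study treats as a published null allele. Col-0 was the unmutated Columbia-0 ecotype, and neither med13 nor Col-0 carried the SDC:GFP transgene. All seedlings were 8 days old, were taken whole, and grew in days of 16 h of light on MS plates with sucrose. For every RNA extraction 5 seedlings were combined, so the p-values measure the spread between pools of seedlings of 1 line. The methods describe a common growth and harvest, and the hour of harvest is not given in the sources used here.

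Other libraries of the series served for comparison only. They were med12 (the T-DNA allele cct-2, also without the transgene), morc1/med13 (gct-2 crossed into SDC:GFP morc1) with morc1 as its control, and ddc/med13 (a CAS9-induced MED13 lesion in SDC:GFP drm1/drm2/cmt3) with ddc as its control, at 4 libraries each. A second wild type, SDC:GFP wild type, which came from a cross of SDC:GFP ddc to Col-0, was used to read levels with no test.

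Mediator is the complex that carries signals from DNA-bound transcription factors to RNA polymerase II. Its kinase module, made of MED12, MED13, the kinase CDK8 and cyclin C, binds the rest of the complex reversibly and can restrain or promote transcription. In Arabidopsis, mutants of MED12 (CENTER CITY) and MED13 (GRAND CENTRAL) are known for delayed development and late flowering.

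The med13 libraries held 6261793 to 6496144 counts on genes and transposable elements and the Col-0 libraries 5696151 to 6116629. At the shallowest of these depths, 3 counts amount to 0.527 counts per 1000000 (CPM). Within groups the libraries correlated at r = 0.971 to 0.9898 on the log scale, and the first principal component of med13, med12 and Col-0 took 55.9% of the variance. Along it med13 replicates 1 to 4 lay at 37.2, 34.0, 12.01 and 29.2 and the Col-0 libraries between -57.0 and -52.5, so that replicate 3 was the med13 library nearest to Col-0. Of the green tissue markers, RBCS1A, RCA and GAPA were called in neither direction and LHCB2.1 was called up, and the summed level of the 4 root markers was 317 to 358 CPM in med13 and 369 to 395 CPM in Col-0. The pollen markers VGD1 and AHA9 summed to 0.462 to 1.09 CPM in med13 and 0.163 to 0.705 CPM in Col-0. Housekeeping genes (UBQ10, ACT2, PP2AA3, TIP41 and EF1A) gave 0 calls of 5. In whole seedlings, fewer cells of a type and less RNA per cell cannot be told apart.

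The RNA of MED13 itself was not depleted in med13. MED13 (AT1G55325, chr1:20637333-20648434, TAIR10.1) had 135, 132, 119 and 126 CPM in med13 replicates 1 to 4, against 107, 117, 110 and 115 CPM in Col-0. Every med13 library lay above every Col-0 library, with means of 128 ± 6.92 and 112 ± 4.40 CPM (SD, n = 4 each) and a log2 fold change of 0.19 (SE 0.04, adjusted p = 0.00262, quasi-likelihood test of edgeR, Benjamini-Hochberg adjusted), under the 1.5-fold that a call needed. Counts over the whole gene do not show whether a transcript runs through an insertion, so the MED13 level does not check the labels. The other module genes gave log2 fold changes of 0.02 for MED12, 0.09 for CDK8, 0.13 for CYCC1;1 and -0.02 for CYCC1;2, and 0 of the 5 module genes were called.

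A gene was called where it differed by more than 1.5-fold with an adjusted p under 0.05 (quasi-likelihood test of edgeR, Benjamini-Hochberg) over 20788 tested genes and transposable elements. Of these, 7.16% were called up and 6.27% were called down in med13, and the median log2 fold change over all was 0.01. Every med13 library lay above every Col-0 library in 21.5% of the tested features and below in 19.7%. The members of 24 gene lists were read against these shares. Seed storage, oil body and late embryogenesis genes were called up in full among the members tested. Those nearly absent from Col-0 could pass the filter on low counts only through the mutant libraries where they are high. For them a full share is a description only. With med13 and Col-0 alone 4 storage genes passed, all called up, but that fit used the same filter, so this share is a description too. Heat shock, clock and jasmonate genes were called up well above the share of all features. Flavonoid, glucosinolate and nitrate genes were called down above it. Several lists, among them the floral activators, were called above the shares in both directions. Root hair, endodermis and phase change genes gave no call in either direction, as the plot of calls per list shows.

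**Figure D1:**
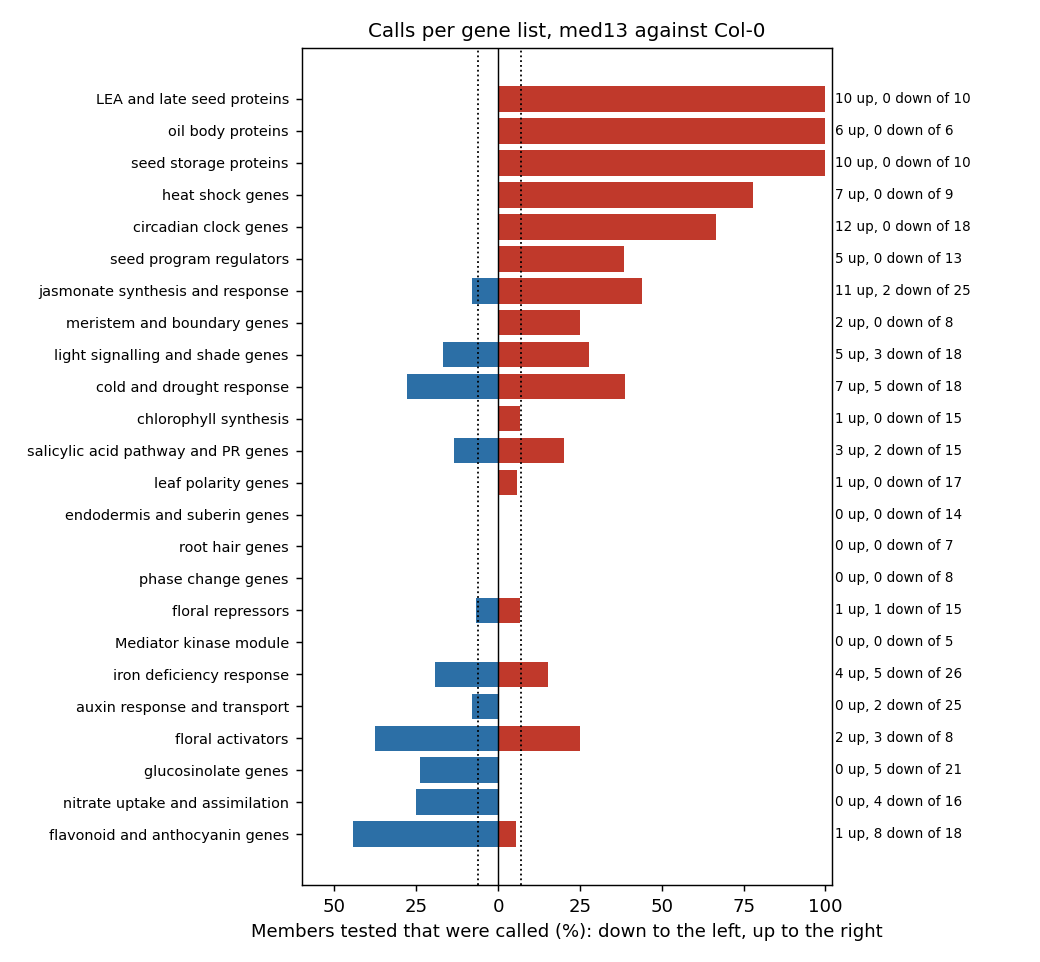
Share of tested members of each gene list called up (red, to the right) or down (blue, to the left) in med13 against Col-0, in percent, with the counts beside the bars. Dotted lines mark the shares over all tested features, 7.16% up and 6.27% down. Storage, oil body and LEA genes reach 100% up among the members that passed the filter on low counts, many of them through the mutant libraries. Flavonoid genes have the longest bar to the left with 8 of 18 down.

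Seed maturation fills the embryo with storage proteins and oil, and prepares it for drying. It is run in Arabidopsis by the B3 transcription factors ABI3, FUS3 and LEC2 with the CCAAT-binding factor LEC1, and it is shut off at germination. The B3 factors are known to read the RY element, CATGCA, in promoters of seed genes. The windows below show RY elements of storage and oil body genes that were called up in med13, each as 30 bases of the gene's own strand, 5′ to 3′, with the RY element in capitals (TGCATG where it lies on the other strand).
CRA1 (chr5:17758483-17758512): acttgaataagcCATGCAaattgaaatgtg
CRU3 (chr4:14087475-14087504): gactgaagtcccCATGCAaacctaatccta
SESA1 (chr4:13607263-13607292): acacgtgaactcCATGCAagtctcttttct
OLEO1 (chr4:12900338-12900367): gtggcctacaatTGCATGatgtctccattg
OLEO2 (chr5:16174875-16174904): aaacttggaaatCATGCAaagccacacctc

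Sequences and coordinates are those of TAIR10.1 (RefSeq). In the 500 bases before the annotated start, searched on both strands, CATGCA was found in 17% of 27443 protein-coding genes, in 10 of the 11 listed storage genes, in 7 of 7 oil body genes and in 8 of 15 LEA genes (53.3%). It was found in 7 of 18 seed program regulators (38.9%), and not in the window of ABI3. A match describes the letters of the window only.

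Seed storage protein genes were called up in 10 of 10 members tested, with a median log2 fold change of 7.05, and AT1G03890 was not tested. Several of them had 0 counts in most Col-0 libraries, so the size of their folds rests on few reads. SESA1 stood at a log2 fold change of 8.14, at 9.76 without Col-0 replicate 4 and at 5.73 without med13 replicate 2. CRA1 (AT5G44120, chr5:17756238-17758336), a 12S cruciferin, had 97.0, 213, 26.4 and 78.3 CPM in med13 replicates 1 to 4, against 7.23, 2.93, 0.999 and 1.97 CPM in Col-0. All 4 med13 libraries lay above all Col-0 libraries, replicate 2 highest and replicate 3 lowest (log2 fold change 5.0, SE 0.96, adjusted p = 0.00109). CRU3, another cruciferin, had 12.1, 219, 3.57 and 24.6 CPM in med13 and 0, 0.325, 0.166 and 0.983 CPM in Col-0 (log2 fold change 7.36, SE 2.13, adjusted p = 0.0141). CRU2 was at 1.94, 152, 0.311 and 3.42 CPM in med13 and at 0.176 CPM in Col-0 replicate 1, with 0 counts in the other Col-0 libraries. Replicate 2 thus stood far above the other med13 libraries for CRU2, and held 96.4% of the med13 sum.

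The 2S albumin genes SESA1 to SESA4 lie side by side on chromosome 4 and resemble each other, so reads can have been split between them or lost. SESA2 had 15.8, 86.3, 2.18 and 34.4 CPM in med13, against 0.176, 0, 0.499 and 0 CPM in Col-0 (log2 fold change 7.54, SE 1.93, adjusted p = 0.00719). SESA1 had 3.23, 60.02, 0.622 and 6.07 CPM in med13, against 0, 0, 0 and 0.164 CPM in Col-0 (log2 fold change 8.14, SE 2.24, adjusted p = 0.0108). In each of the 10 called storage genes replicate 2 was the highest med13 library and replicate 3 the lowest. AT1G03890, a cupin gene, was seen in replicate 2 at 43.6 CPM and in replicate 4 at 0.156 CPM, with 0 counts in replicates 1 and 3 and in all of Col-0.

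Oil body protein genes were called up in 6 of 6 members tested. OLEO2 (AT5G40420), an oleosin of the oil body surface, had 30.3, 68.3, 15.7 and 29.6 CPM in med13, against 1.59, 0.650, 0.832 and 0.655 CPM in Col-0 (log2 fold change 5.26, SE 0.67, adjusted p = 5.1e-05). OLEO1 had 15.8, 88.8, 2.02 and 19.6 CPM in med13, against 1.23, 0.163, 0.333 and 0.328 CPM in Col-0 (log2 fold change 5.92, SE 1.47, adjusted p = 0.00596). For both oleosins the groups did not overlap. OLEO3 had 11.8, 48.8, 0.311 and 13.8 CPM in med13, against 0.705, 0.813, 0.832 and 0.819 CPM in Col-0, so that med13 replicate 3 fell below all of Col-0 (log2 fold change 4.52, adjusted p = 0.0149). The caleosin gene ATS1 had 1.61, 44.8, 0.311 and 2.65 CPM in med13, against 0 counts in all Col-0 libraries, so that the med13 mean was at least 24.5-fold higher than 3 counts a library. Replicate 2 held 90.7% of the med13 sum, and without it ATS1 was not called (adjusted p = 0.121). The call of ATS1 was also lost when any single Col-0 library was left out. The remaining called members, OLEO4 and OLEO5, gave log2 fold changes of 3.37 and 3.02.

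**Figure D2:**
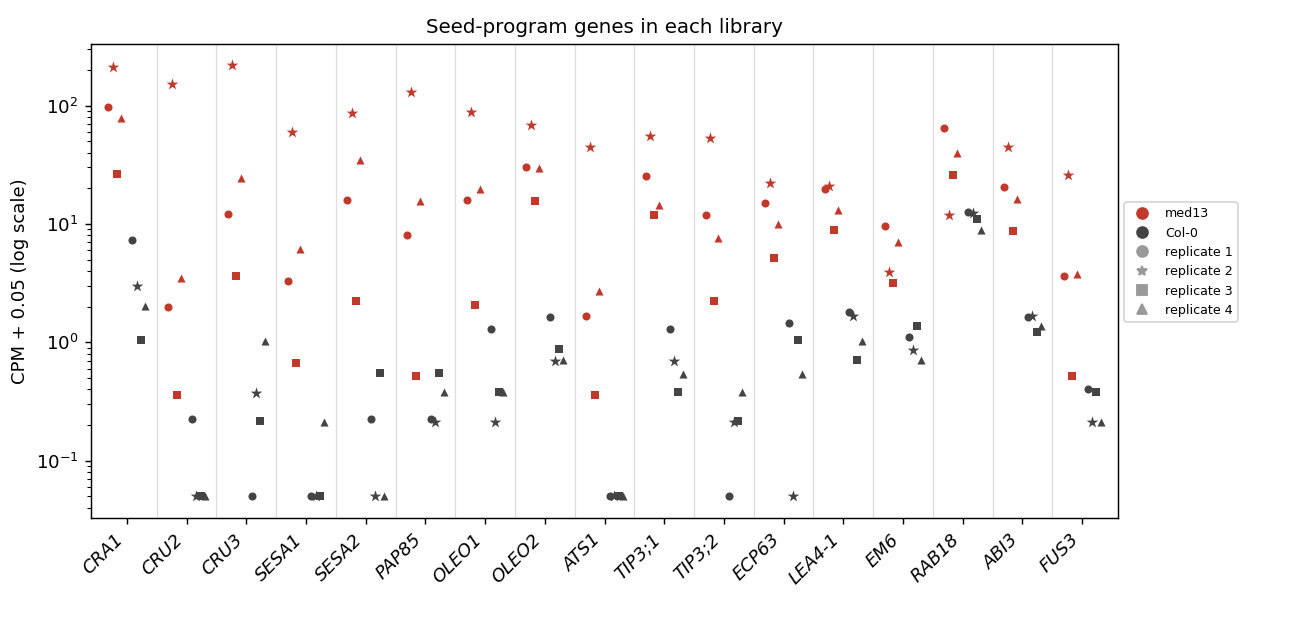
CPM (plus 0.05, log axis) of 17 genes of the seed program in each med13 (red) and Col-0 (dark grey) library, with the replicate given by the marker. Stars, med13 replicate 2, stand highest for CRA1 at 213 CPM and CRU2 at 152 CPM, but not for EM6 or RAB18, where replicate 2 had 3.85 and 11.9 CPM.

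Late embryogenesis abundant (LEA) and other late seed genes, which protect dehydrating cells, were called up in 10 of 10 members tested, with a median log2 fold change of 3.41. LEA4-1 had 19.8, 20.9, 8.86 and 13.1 CPM in med13, against 1.76, 1.63, 0.666 and 0.983 CPM in Col-0 (log2 fold change 3.62, SE 0.43, adjusted p = 2.9e-05). TIP3;1, an aquaporin of the seed vacuole, had 25.3, 54.9, 11.8 and 14.3 CPM in med13, against 1.23, 0.650, 0.333 and 0.492 CPM in Col-0 (log2 fold change 5.27, SE 0.81, adjusted p = 2.1e-04). Neither gene overlapped between groups. TIP3;2 had 11.8, 53.1, 2.18 and 7.62 CPM in med13 and up to 0.328 CPM in Col-0, and its log2 fold change was 6.64 with replicate 2 and 5.25 without it. ECP63 rose with a log2 fold change of 4.16. Replicate 2 was not the highest throughout: among the 10 called LEA genes, replicate 1 was highest in 5 and replicate 2 in 5. EM6, chosen after its values were seen, had 9.52, 3.85, 3.11 and 7.00 CPM in med13, against 1.06, 0.813, 1.33 and 0.655 CPM in Col-0 (log2 fold change 2.58, adjusted p = 0.00152). RAB18, a dehydrin that abscisic acid also induces in leaves, had 65.0, 11.9, 25.6 and 39.4 CPM in med13, against 12.5, 12.4, 10.99 and 8.85 CPM in Col-0. In RAB18 replicate 2 was the lowest med13 library and lay within the Col-0 range (log2 fold change 1.66, adjusted p = 0.0179). SDC:GFP wild type had 42.6 to 53.3 CPM of RAB18, the 1 of the 10 LEA genes whose mean there was at or above that of med13. EM1, M17, M10, AT3G22490 and AT3G22500 had too few counts to be tested.

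Of the seed program regulators, 5 of 13 members tested were called up and 0 down. ABI3 (AT3G24650) had 20.7, 44.3, 8.70 and 16.2 CPM in med13, against 1.59, 1.63, 1.17 and 1.31 CPM in Col-0 (log2 fold change 3.97, SE 0.65, adjusted p = 3.6e-04). Its lowest med13 library lay above the highest of Col-0. FUS3 had 3.55, 25.9, 0.466 and 3.73 CPM in med13, against 0.353, 0.163, 0.333 and 0.164 CPM in Col-0 (log2 fold change 4.96, SE 1.46, adjusted p = 0.0153). L1L, a relative of LEC1, had 4.20, 24.6, 0 and 4.51 CPM in med13, against 0.353, 0.325, 0.499 and 0.164 CPM in Col-0 (log2 fold change 4.56, adjusted p = 0.0256). FUS3 and L1L were thus highest in replicate 2 and at or near the Col-0 level in replicate 3. ABI5, a bZIP factor of the abscisic acid response in seeds, was called at a log2 fold change of 0.63. VAL1, VAL2 and PKL, which keep the seed program silent after germination, had log2 fold changes of 0.31, 0.10 and 0.01 and were not called. LEC1 and LEC2 were too low for the test, at up to 3.85 and 1.08 CPM in med13, with 0 counts and up to 0.166 CPM in Col-0. HSFA9 was listed at 0 in all 8 libraries.

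DOG1, a regulator of seed dormancy, was called up in med13 against Col-0 and stood apart from the other regulators in the wild types. It had 4.52, 8.16, 2.80 and 3.73 CPM in med13, against 0.529, 0, 0.333 and 0.492 CPM in Col-0 (log2 fold change 3.77, SE 0.55, adjusted p = 1.3e-04). In SDC:GFP wild type it had 6.83, 8.72, 4.87 and 4.03 CPM, within or above the med13 range. In ddc/med13 against ddc, DOG1 was called down at a log2 fold change of -0.96.

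Seed genes were also read in the other backgrounds. In morc1/med13 against morc1, 7.6% of 19201 tested features were called up. There 9 of 9 storage genes tested, 5 of 5 oil body genes, 9 of 10 LEA genes and 6 of 12 regulators were called up. In ddc/med13 against ddc, 7.9% of 18889 tested features were called up and 7.1% down. There 1 of 1 storage gene tested, 1 of 1 oil body gene, 3 of 7 LEA genes and 0 of 10 regulators were called up, and 2 regulators were called down. Most storage and oil body genes were thus too low for a test in that pair. For CRA1 the log2 fold changes were 2.68 against morc1 and 4.89 against ddc, and for OLEO2 they were 3.94 and 3.56. med12 was compared with the same Col-0 libraries, and had 8 of 10 storage, 5 of 6 oil body and 10 of 10 LEA genes called up, where 7.66% of all tested features were. In each of these comparisons, genes nearly absent from the control could pass the filter on low counts only through mutant libraries. For such genes the share called up is a description only. When med13 was tested against med12 directly, where 1.86% were called up and 3.19% down, 0 of the storage, oil body, LEA and regulator genes were called in either direction.

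The seed genes were not equally high in the 4 med13 libraries, and replicate 2 was the extreme. Summed over the storage and oil body lists, the med13 libraries held 280, 1598.5, 78.6 and 325 CPM, against 18.9, 10.6, 10.2 and 11.6 CPM in Col-0. The lowest med13 sum, in replicate 3, remained above all Col-0 sums. The LEA genes summed to 258, 255, 101.9 and 163 CPM in med13, against 31.4, 26.3, 26.97 and 23.9 CPM in Col-0, so here replicate 2 did not stand out. med12 varied between libraries as well, at 836, 326, 711 and 110 CPM for storage and oil body genes. What set replicate 2 apart was not tested.

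Leaving out med13 replicate 2 ended the calls of 7 seed genes. Without it, 8 of 10 storage genes, 3 of 6 oil body genes, 10 of 10 LEA genes and 3 of 13 regulators were still called up, where 6.81% of 20925 tested features were. The genes that lost their call were CRU2, SESA4, OLEO3, OLEO4, ATS1, FUS3 and L1L. Of these, CRU2, ATS1 and L1L also lost it with the replicate block and when any single Col-0 library was left out. CRA1 kept a log2 fold change of 4.36 (adjusted p = 0.00167), OLEO2 of 4.73 (adjusted p = 3.0e-05), ABI3 of 3.39 (adjusted p = 5.5e-04) and CRU3 of 5.08 (adjusted p = 0.0378), all by the same test.

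Over the whole transcriptome, leaving out replicate 2 cost about as many up calls (172) as leaving out replicate 1 (161) or 4 (159). Without replicate 2, 1316 of the 1488 up calls were kept, and without replicates 1, 3 and 4 in turn 1327, 1401 and 1329 were kept. Of the 1304 down calls, 1195 were kept without replicate 2, and 1130, 1238 and 1196 without replicates 1, 3 and 4. Among the features called up, the highest med13 library was replicate 1 in 539, replicate 2 in 439, replicate 3 in 136 and replicate 4 in 374. A single replicate held over 50% of the med13 sum in 72 features for replicate 2, in 18 for replicate 1 and in 0 for replicates 3 and 4. Of the 72, 41 kept their call without replicate 2. The largest shares in replicate 2 were those of CRU2, ATS1, HSD5 and AT3G63040. HSD5, a steroleosin-like hydroxysteroid dehydrogenase, had 1.29, 34.0, 0.155 and 2.18 CPM in med13, and AT3G63040 had 1.29, 24.6, 0 and 2.65 CPM, against Col-0 values of up to 0.492 and 0.166 CPM. For HSD5 and AT3G63040 the call was lost without replicate 2, at adjusted p = 0.325 and 0.135. CRU2, ATS1, HSD5 and AT3G63040 also lost their call when any single Col-0 library was left out, so these losses are not particular to replicate 2.

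Heat shock genes, chaperones of heat-denatured proteins that seeds also make late in maturation, were called up in 7 of 9 members tested. HSP101, the disaggregase, had 144, 141, 56.4 and 89.5 CPM in med13, against 24.0, 28.1, 26.1 and 25.9 CPM in Col-0 (log2 fold change 2.04, SE 0.28, adjusted p = 7.9e-05). Its groups did not overlap. HSP17.4, a small heat shock protein, had 34.2, 54.9, 6.99 and 43.3 CPM in med13, against 0.353, 2.6, 1.498 and 8.03 CPM in Col-0 (log2 fold change 3.45, SE 0.63, adjusted p = 7.7e-04). For HSP17.4, replicate 3 of med13 lay below replicate 4 of Col-0, and the called small heat shock proteins HSP23.6, HSP17.6II and HSP17.6A overlapped in the same way. The last pair are neighbouring genes of alike sequence, and both lost their call without replicate 2. They also lost it without Col-0 replicate 1, 2 or 3, under glmTreat and with DESeq2, which called 5 heat shock genes up. Replicate 2 was the highest library in 6 of the 7 called genes and replicate 3 the lowest in 7. Without replicate 2, 4 heat shock genes were called up, where 6.81% of all tested features were. HSP18.2 was then called down, where 6.42% of all tested features were.

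Heat shock genes differed between med13 and med12. In med12 against the same Col-0, 0 of 9 were called up and 2 were called down, where 5.12% of all tested features were called down. In the direct test of med13 against med12, 8 of 9 were called up, where 1.86% of all tested features were. HSP101 was 1.46 higher in med13 on the log2 scale (adjusted p = 0.00123) and HSP17.4 was 4.29 higher (adjusted p = 6.9e-04). With other controls the direction varied. In morc1/med13 against morc1, 2 of 5 were called up and 1 down, where 7.6% of all tested features were called up and 11.3% down. In ddc/med13 against ddc, 0 of 6 were called up and 5 down, where 7.1% of all tested features were called down. HSP101 was at 27.6, 21.98, 80.7 and 64.5 CPM in ddc/med13, against 26.9, 29.8, 36.4 and 220 CPM in ddc, so that ddc replicate 4 stood above the other libraries. Its part in the calls of that pair was not tested.

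The circadian clock of Arabidopsis is a loop of dawn factors (CCA1, LHY), day factors (PRR9, PRR7, PRR5 and their partners), GI and the evening complex. Because its genes cycle every day, their level in a sample depends on the hour of harvest. Clock and clock-output genes were called up in 12 of 18 members tested and down in 0, with a median log2 fold change of 1.28. GI (AT1G22770), which stabilizes the photoreceptor ZTL and acts on CO through FKF1, was listed with the floral activators and is not among these 18. It had 136, 130, 121 and 159 CPM in med13, against 7.93, 9.91, 6.82 and 12.6 CPM in Col-0. The groups lay far apart, at a log2 fold change of 3.86 (SE 0.15, adjusted p = 2.7e-09). LNK1, a partner of RVE factors, had 30.01, 37.1, 10.4 and 31.4 CPM in med13, against 0.881, 1.14, 1.997 and 1.64 CPM in Col-0 (log2 fold change 4.24, SE 0.54, adjusted p = 4.7e-05). CDF3, a DOF repressor of CO, had 13.9, 17.9, 15.1 and 20.5 CPM in med13, against 2.12, 1.14, 1.17 and 0.983 CPM in Col-0 (log2 fold change 3.63, SE 0.40, adjusted p = 1.4e-05). CDF1 and PRR9 rose at log2 fold changes of 2.85 and 2.72. PRR7 had 202, 191, 171 and 198 CPM in med13, against 48.8, 62.2, 45.6 and 62.9 CPM in Col-0 (log2 fold change 1.79, adjusted p = 1.5e-08). Other members stood close between the groups: TOC1 gave a log2 fold change of 0.06, ELF3 of -0.00, ELF4 of -0.15, LUX of 0.48, ZTL of 0.06 and LHY of 0.10, and these 6 were not called.

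**Figure D3:**
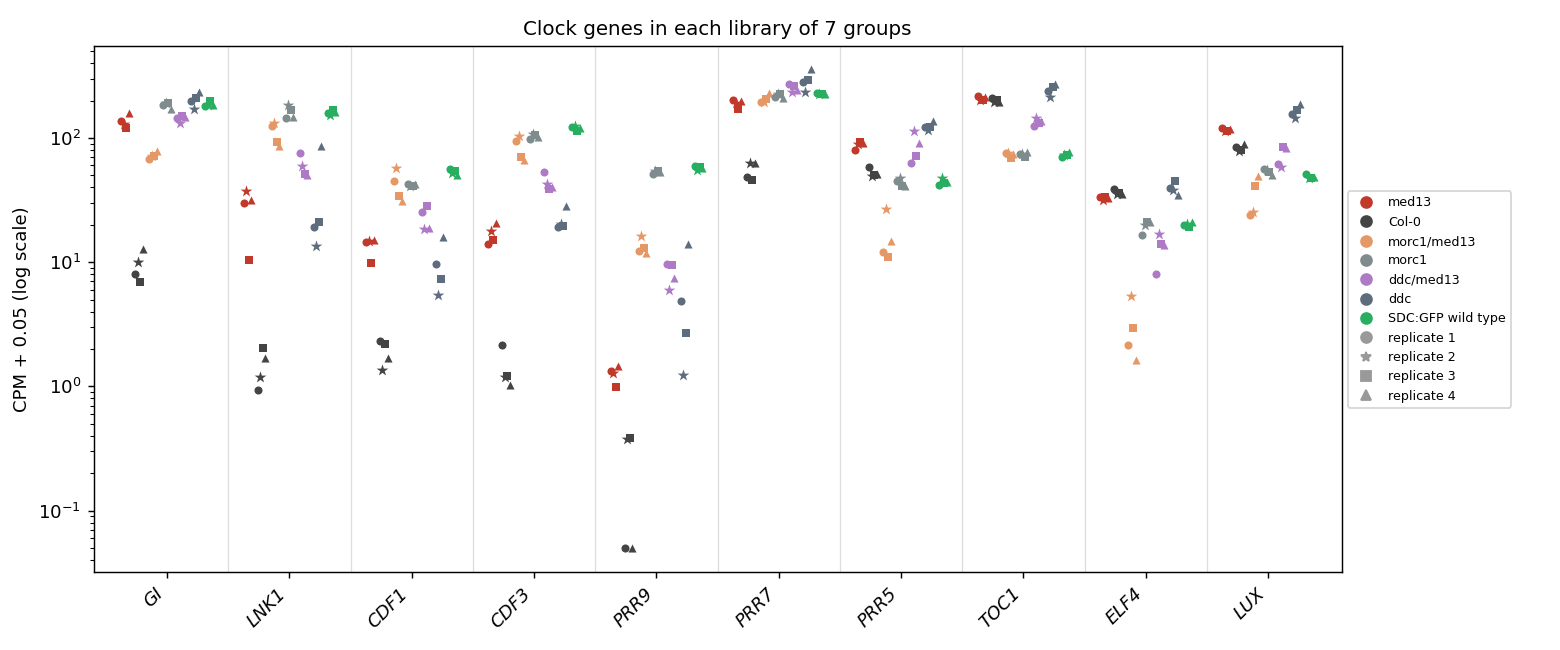
CPM (plus 0.05, log axis) of 10 clock genes in every library of med13, Col-0 and 5 other groups, with the replicate given by the marker. For GI, med13 (red) had 121 to 159 CPM, Col-0 (dark grey) stands below the other 6 groups plotted at 6.82 to 12.6 CPM, and SDC:GFP wild type had 179 to 197 CPM.

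For most of the clock genes called up, SDC:GFP wild type lay above both med13 and Col-0. SDC:GFP wild type had 179 to 197 CPM of GI, 153 to 169 CPM of LNK1, 115 to 124 CPM of CDF3 and 55.2 to 59.6 CPM of PRR9. Its mean was at or above that of med13 in 9 of the 12 genes of the clock list called up, which do not include GI. Over all features called up this held for 181 of 1488 (12.2%), and over all tested features for 39.2%. The level of TOC1, not called in med13, stood apart in SDC:GFP wild type as well, at 70.1 to 77.2 CPM, with 200.4 to 216 CPM in med13 and 193 to 210 CPM in Col-0. With their own controls, GI and PRR9 moved the other way. GI had 67.8 to 77.8 CPM in morc1/med13 and 171 to 192 CPM in morc1, and was called down (log2 fold change -1.35). PRR9 had 11.7 to 16.0 CPM in morc1/med13, against 51.5 to 54.2 CPM in morc1, and was called down too (log2 fold change -2.0). Over the list, 3 of 18 were called up and 5 down against morc1, where 7.6% of all tested features were called up and 11.3% down. Against ddc, 5 of 18 were called up and 5 down, where 7.9% of all tested features were called up and 7.1% down. med12, compared with the same Col-0 libraries, had 12 of 18 called up, where 7.66% of all tested features were. In the direct test of med13 against med12, CCA1, PRR9, CDF3 and LNK1 were lower in med13, at log2 differences of -0.88, -1.56, -0.99 and -1.14. Whether the hour of harvest differed between libraries was not tested and cannot be told apart from genotype within the 8 libraries.

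Light and shade genes were called in both directions. Of 18 tested, 5 were called up (PIF1, PIF4, PIF5, PIF7 and ATHB2) and 3 down (CGA1, ELIP1 and HFR1). PIF5, a phytochrome-interacting growth factor that the clock also controls, had 119, 107, 110 and 118 CPM in med13, against 41.1, 42.9, 35.3 and 50.6 CPM in Col-0 (log2 fold change 1.42, SE 0.07, adjusted p = 2.3e-08). In SDC:GFP wild type PIF5 had 136 to 149 CPM, and 4 of the 5 called up were at or above the med13 mean there. ELIP1, an early light-induced protein, had 0, 0.770, 0.622 and 0.467 CPM in med13, against 2.82, 3.09, 3.495 and 4.26 CPM in Col-0 (log2 fold change -2.81, adjusted p = 0.00842). HFR1, an inhibitor of PIF proteins, fell at a log2 fold change of -0.97.

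Chlorophyll and antenna genes changed at few points. CAO (AT1G44446), which makes chlorophyll b, was the 1 of 15 chlorophyll synthesis genes called. It had 88.9, 97.0, 95.4 and 92.4 CPM in med13, against 36.0, 35.9, 34.6 and 36.9 CPM in Col-0 (log2 fold change 1.38, adjusted p = 2.1e-08), and 221 to 237 CPM in SDC:GFP wild type. LHCB2.1, LHCB2.2 and LHCB2.3 of the photosystem II antenna rose at log2 fold changes of 1.09, 1.21 and 1.63, as 3 of 13 antenna genes. The first pair are near-identical, so their reads may be shared. For LHCB2.1 the mean of SDC:GFP wild type was at or above that of med13. Of the 25 PSA and PSB photosystem subunits, 0 were called. Removal of duplicates from single-end reads, as the study did, limits the counts that strongly expressed genes can reach.

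Floral repressors were called in a few members only. FLC (AT5G10140), the MADS-box repressor of flowering, had 38.2, 40.2, 31.7 and 40.6 CPM in med13, against 10.6, 7.96, 5.83 and 7.21 CPM in Col-0. The groups did not overlap, and the log2 fold change was 2.26 (SE 0.14, adjusted p = 1.4e-07). FLC was also called up in morc1/med13 against morc1 (25.1 to 37.1 against 4.02 to 6.45 CPM, log2 fold change 2.52) and in ddc/med13 against ddc (23.7 to 26.3 against 10.4 to 13.4 CPM, log2 fold change 1.07). SDC:GFP wild type had 4.32 to 5.90 CPM of FLC, at or below the Col-0 range. FLC and TFL1 were the 2 of 15 floral repressors called. TFL1, which holds the shoot apex in an indeterminate state, had 0, 0.308, 0.311 and 0.156 CPM in med13, against 2.64, 3.41, 2.16 and 5.57 CPM in Col-0 (log2 fold change -4.01, SE 0.51, adjusted p = 5.0e-05). The FLC relatives FLM, MAF2, MAF3, MAF4 and MAF5 and the repressor SVP had log2 fold changes between 0.10 and 0.23 and were not called.

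Among floral activators, 3 of 8 tested were called down and 2 up, GI among those called up. Over all tested features 6.27% were called down and 7.16% up. CO, the long-day activator of FT, had 5.16, 9.08, 8.70 and 11.4 CPM in med13, against 14.3, 16.1, 11.7 and 21.5 CPM in Col-0 (log2 fold change -0.89, adjusted p = 0.011). AGL42 and AGL14, relatives of SOC1, fell at -1.13 and -0.96, and AGL19 rose at 0.88. The mean of SDC:GFP wild type was at or above that of med13 in 2 of the 2 activators called up. It was at or below that of med13 in 1 of the 3 called down. SOC1 had 37.9, 38.0, 32.5 and 30.7 CPM in med13, against 54.6, 42.9, 47.6 and 46.7 CPM in Col-0, a log2 fold change of -0.46 under the 1.5-fold needed. FT was too low for the test, with 0, 0.154, 0 and 0 CPM in med13 and 0.650 to 0.999 CPM in Col-0. AP1 was listed at 0 in all 8 libraries. SEP3, a floral organ gene, had 3.87, 3.54, 2.95 and 3.58 CPM in med13, against 11.5, 10.9, 13.5 and 23.1 CPM in Col-0 (log2 fold change -2.08, adjusted p = 2.1e-05). PI, another floral organ gene, was called up at 1.68. SEP3 and PI were chosen after their values were seen.

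Of the meristem and boundary genes, 2 of 8 tested were called up. STM, which maintains the shoot meristem, had 26.5, 35.4, 20.5 and 13.4 CPM in med13, against 9.52, 9.43, 10.5 and 11.96 CPM in Col-0 (log2 fold change 1.21, adjusted p = 0.00125). CUC2, an organ boundary factor, had 5.81, 6.002, 4.04 and 3.11 CPM in med13, against 1.06, 0.975, 1.33 and 1.64 CPM in Col-0 (log2 fold change 1.90, adjusted p = 3.2e-04). In neither gene did the groups overlap. AS2 was called up at 1.03 as the 1 of 17 leaf polarity genes, and the remaining 16, among them KAN1, FIL and PHV, were not called.

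Cold and drought genes moved in both directions: CBF1, CBF2 and CBF4 rose, while COR15A, COR15B, COR78 and LTI30, targets known from cold-treated plants, fell. Of 18 tested, 7 were called up and 5 down. CBF3, DDF2, ICE1 and the genes COR47, KIN1, KIN2, ERD10 and GOLS3, also listed, were not called or were too low to be tested. CBF2 (AT4G25470), an AP2 factor of cold acclimation, had 35.5, 13.5, 17.9 and 26.8 CPM in med13, against 1.06, 0.163, 0.499 and 0.655 CPM in Col-0 (log2 fold change 5.27, SE 0.55, adjusted p = 9.7e-06). CBF1 had 18.23, 5.54, 9.94 and 19.8 CPM in med13, against 0.705, 0.813, 0.499 and 0.655 CPM in Col-0 (log2 fold change 4.28, SE 0.52, adjusted p = 3.6e-05). In both genes replicate 2 was the lowest med13 library and still lay above all of Col-0. CBF4 was called up at 4.28. DDF1, a relative of the CBF genes, had 20.3, 2.46, 1.71 and 10.9 CPM in med13 and 0 counts in all Col-0 libraries. SDC:GFP wild type had 10.7 to 20.3 CPM of CBF2 and 2.303 to 6.39 CPM of CBF1, above all of Col-0 and in part within the med13 range. With their own controls CBF2 was called up as well, at 3.52 against morc1 and 3.13 against ddc. The zinc finger genes ZAT10 and ZAT12, which stress induces quickly, rose at 1.90 and 1.35, and RD29B, an abscisic acid target, at 2.4.

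The genes that fell were COR15A, COR15B, COR78, LTI30 and TINY, and these, like ZAT10, ZAT12 and RD29B, were named after their values were seen. COR15A (AT2G42540), a chloroplast protein that protects membranes in the cold, had 10.8, 24.2, 21.6 and 10.3 CPM in med13, against 60.3, 40.6, 54.8 and 31.3 CPM in Col-0 (log2 fold change -1.48, SE 0.27, adjusted p = 8.3e-04). COR78 had 35.8, 37.9, 29.7 and 42.9 CPM in med13, against 83.9, 72.0, 75.6 and 88.0 CPM in Col-0 (log2 fold change -1.13, SE 0.19, adjusted p = 4.8e-04). Neither gene overlapped between groups. COR15B, LTI30 and TINY fell at -0.75, -0.71 and -1.18. In the direct test of med13 against med12, COR15A and COR78 were called down at log2 differences of -0.90 and -1.17. CBF factors are known to bind the dehydration-responsive element (DRE), ACCGAC or GCCGAC. The windows below show it in capitals in promoters of the cold targets that fell, as 30 bases of the gene's own strand, 5′ to 3′ (GTCGGT and GTCGGC where it lies on the other strand).
COR15A (chr2:17712393-17712422): attaacttgttgGCCGACatacatttgttt
COR15B (chr2:17710681-17710710): tatcatctagaaGTCGGTatgccacaccac
COR78 (chr5:21240671-21240700): aaaagatatactACCGACatgagttccaaa
LTI30 (chr3:18940613-18940642): tgaatatattacttttacgatGTCGGCcaa

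In the 500 bases before the start, on both strands, a DRE was found in 12.6% of protein-coding genes, in 8 of the 20 cold and drought genes (40%), in 4 of the 5 called down and in 2 of the 7 called up. Among clock genes, the evening element AAAATATCT was found in the same window in 4 of 18 (22.2%) and in 2 of the 12 called up (16.7%), against 4.44% of all protein-coding genes. PRR5 held it, and LNK1, CDF1 and CDF3 did not. Neither did GI, which is outside the clock list. None of these motifs contains another of them.

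**Figure D4:**
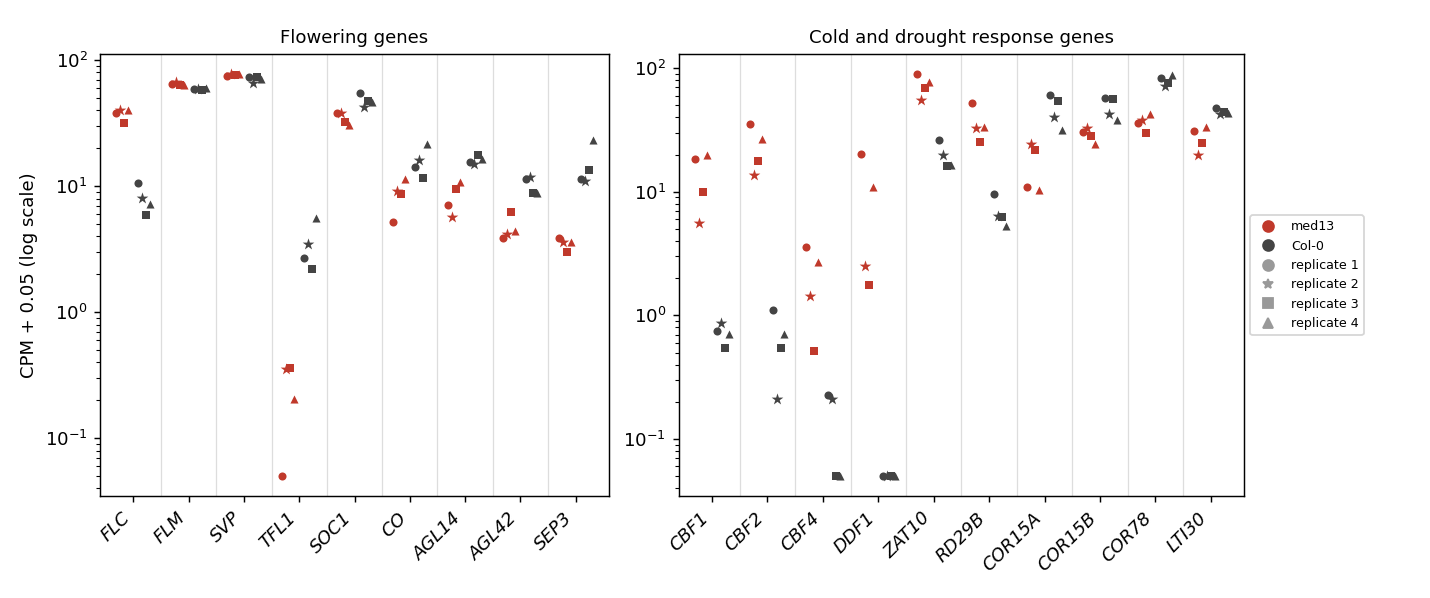
CPM (plus 0.05, log axis) of 9 flowering genes (left) and 10 cold and drought genes (right) in each med13 (red) and Col-0 (dark grey) library, with the replicate given by the marker. FLC stands higher in med13 (31.7 to 40.6 CPM) than in Col-0 (5.83 to 10.6 CPM), and CBF2 stands higher while COR15A and COR78 stand lower in med13.

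Jasmonate genes were called up in 11 of 25 tested and down in 2. LOX3 and LOX4, lipoxygenases that start jasmonate synthesis, AOC1, AOC3 and OPR3 of the same pathway, the factor MYC2 and the JAZ repressors JAZ1, JAZ5, JAZ7, JAZ8 and JAZ10 made up the called group. JAZ8 had 8.87, 1.54, 1.09 and 5.45 CPM in med13, against 0.353, 0.488, 0.333 and 0.655 CPM in Col-0 (log2 fold change 3.14, SE 0.74, adjusted p = 0.00427). LOX4 had 34.2, 3.85, 8.39 and 30.5 CPM in med13, against 4.76, 5.85, 4.49 and 4.26 CPM in Col-0 (log2 fold change 1.98, SE 0.56, adjusted p = 0.0131). In LOX4 replicate 2 lay below all of Col-0. Over the 11 genes replicate 1 was highest in 9 and replicate 2 lowest in 7, whereas the storage genes were highest in replicate 2. CORI3, a cystine lyase that jasmonate and coronatine induce, went the other way: it had 6.78, 15.2, 19.3 and 11.4 CPM in med13, against 89.0, 99.3, 94.4 and 79.0 CPM in Col-0 (log2 fold change -2.77, SE 0.25, adjusted p = 3.4e-06). ORA59, a factor of the jasmonate and ethylene branch, fell at -0.69. The storage proteins VSP1 and VSP2, late jasmonate targets, had log2 fold changes of 0.16 and 0.02 and were not called. The mean of SDC:GFP wild type was at or below that of med13 in 1 of the 2 jasmonate genes called down. It was at or above that of med13 in 0 of the 11 called up.

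Of the salicylic acid and pathogenesis genes, 3 of 15 tested were called up and 2 down. CBP60G and SARD1, factors that switch on ICS1, had 80.5, 30.5, 46.3 and 66.3 CPM and 10.97, 16.9, 13.2 and 20.7 CPM in med13, against 10.2, 10.9, 8.66 and 9.01 CPM and 0.881, 3.74, 2.83 and 2.29 CPM in Col-0. Neither overlapped, at log2 fold changes of 2.52 and 2.64 (adjusted p = 2.3e-05 and 2.0e-05). ICS1 itself, the salicylic acid synthesis enzyme, had 18.9, 29.4, 23.3 and 19.0 CPM in med13, against 19.0, 19.0, 16.3 and 19.7 CPM in Col-0, and was not called. WRKY70 rose at 0.92, while ALD1, of pipecolate synthesis, and PR5 fell at -1.44 and -1.34. In ddc/med13 against ddc, CBP60G and SARD1 were called up at 2.57 and 2.49.

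Flavonoid genes were called down in 8 of 18 tested, and 1 was called up. CHS (AT5G13930), which makes the first flavonoid, had 39.9, 59.6, 63.1 and 40.3 CPM in med13, against 108, 104, 108 and 101.6 CPM in Col-0 (log2 fold change -1.05, SE 0.12, adjusted p = 1.9e-05). DFR, the first step toward anthocyanins, had 1.29, 1.85, 2.80 and 3.58 CPM in med13, against 8.46, 13.7, 15.5 and 13.9 CPM in Col-0 (log2 fold change -2.43, SE 0.67, adjusted p = 0.011). Neither gene overlapped between groups. LDOX, 5MAT and TT19, later anthocyanin genes, fell at -2.19, -2.39 and -2.11, and F3H and FLS1 at -1.39 and -0.99. Of the flavonol regulators, MYB12 fell at -1.86 and MYB111 rose at 1.19. CHS, F3H, FLS1, MYB12 and MYB111 were named after their values were seen. PAP1 and PAP2, MYB factors of anthocyanin synthesis, were at 0 to 0.161 CPM in med13 and 0 to 0.488 CPM in Col-0 and were not tested.

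Glucosinolate genes, which make the mustard oil precursors of the cabbage family, were called down in 5 of 21 tested and up in 0. MYB29, a factor of the methionine-derived branch, had 2.26, 2.001, 4.66 and 4.20 CPM in med13, against 8.64, 7.96, 6.66 and 9.83 CPM in Col-0 (log2 fold change -1.33, SE 0.28, adjusted p = 0.00191). CYP79B2, the entry enzyme of the tryptophan-derived branch, had 40.2, 47.6, 57.3 and 63.0 CPM in med13, against 87.4, 97.7, 87.6 and 95.2 CPM in Col-0 (log2 fold change -0.82, SE 0.11, adjusted p = 8.7e-05). Both fell without overlap. CYP79F1 and CYP79F2, neighbouring and closely related entry enzymes of the methionine branch, fell at -0.85 and -0.92, and MYB28 at -0.60. In CYP79F1, med13 replicate 3 lay within the Col-0 range, and the call was lost without med13 replicate 1 (-0.67) or 4 (-0.72) or Col-0 replicate 2 (-0.67) or 4 (-0.79). Without med13 replicate 1, 3 glucosinolate genes were called down. SUR1 was listed at 0 in all 8 libraries.

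Flavonoid and glucosinolate genes differed between med13 and med12. In med12 against the same Col-0, 7.66% of all tested features were called up and 5.12% down. There 2 of 18 flavonoid genes were called up and 1 down, near those shares, and 6 of 21 glucosinolate genes were called up and 0 down. In the direct test of med13 against med12, 8 of 18 flavonoid and 8 of 21 glucosinolate genes were lower in med13, and 0 were higher, where 3.19% of all tested features were called down. The log2 difference of med13 from med12 was -2.97 for CYP79F1 (adjusted p = 3.1e-06), -2.20 for MYB29 (adjusted p = 9.8e-05) and -1.44 for F3H (adjusted p = 4.2e-05). In morc1/med13 against morc1, 14 of 20 flavonoid and 11 of 20 glucosinolate genes were called down, where 11.3% of all tested features were. In ddc/med13 against ddc, 7.9% of all tested features were called up and 7.1% down. There 1 of 12 flavonoid genes was called up and 1 down, near those shares, and 7 of 19 glucosinolate genes were called up. The level of these genes also differed between controls: MYB29 had 54.4 to 61.5 CPM in morc1, 1.79 to 4.797 CPM in ddc and 55.8 to 69.0 CPM in SDC:GFP wild type.

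**Figure D5:**
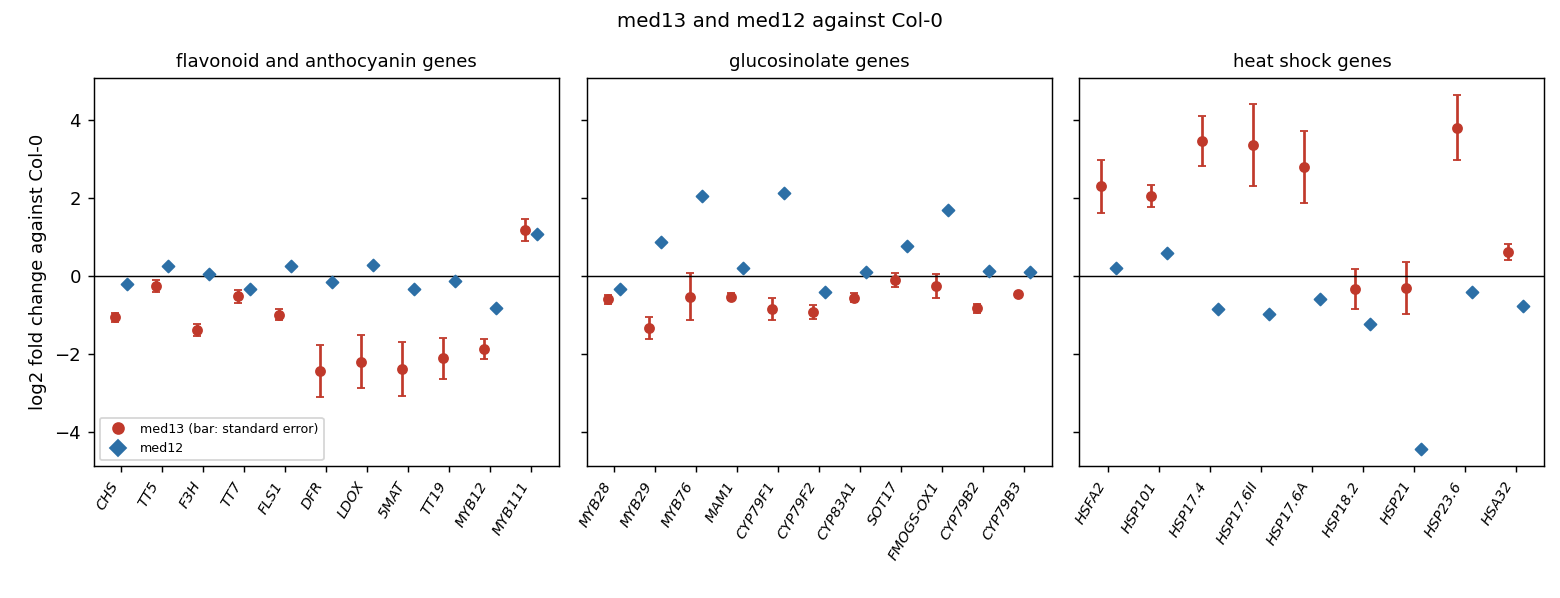
Log2 fold change against the same 4 Col-0 libraries in med13 (red circles, with standard error) and med12 (blue diamonds, no error drawn) for genes of the flavonoid, glucosinolate and heat shock lists. CYP79F1 lies at -0.85 in med13 and 2.12 in med12, and HSP17.4 at 3.45 in med13 and -0.83 in med12.

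Nutrient genes were called in smaller numbers. Of 16 nitrate genes tested, 4 were called down and 0 up. NRT1.5, which loads nitrate into the xylem, had 113, 96.2, 100.4 and 112 CPM in med13, against 190, 163, 171 and 177 CPM in Col-0 (log2 fold change -0.73, SE 0.06, adjusted p = 2.5e-06). NRT1.7 and NRT1.8, other nitrate transporters, fell at -0.79 and -1.13, and NRT2.3 had 0 counts in all med13 libraries. The nitrate reductase genes NIA1 and NIA2 had log2 fold changes of -0.20 and -0.36 and were not called. For 1 of the 4 nitrate genes called down, the mean of SDC:GFP wild type was at or below that of med13. Of 26 iron genes tested, 4 were called up and 5 down. BHLH100 had 15.3, 14.9, 10.3 and 12.3 CPM in med13, against 0.529, 4.06, 4.66 and 1.64 CPM in Col-0 (log2 fold change 2.26, adjusted p = 4.6e-04), and its relatives BHLH101 and BHLH38 rose at 1.48 and 1.42. Col-0 varied widely in this list: CYP82C4, a coumarin enzyme of iron-starved roots, had 1.45, 2.77, 0.622 and 1.87 CPM in med13, against 1.94, 13.3, 8.49 and 0.655 CPM in Col-0. It was called down at -1.85, with overlapping groups, and the call was lost in 9 of 14 alternative settings, among them DESeq2 and leaving out med13 replicate 1, 3 or 4 or Col-0 replicate 2 (-1.13) or 3. FRO2, the root iron reductase, was called up at 1.11 with overlapping groups and lost the call without replicate 2 (adjusted p = 0.0749). FIT, BTSL1, MYB10 and FER1 made up the rest of the fallen iron genes. The number called down was 3 without med13 replicate 2, where BTSL1 and FER1 no longer reached 1.5-fold, and also 3 without med13 replicate 1 or Col-0 replicate 3.

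Auxin genes were near the shares of all features, with 2 of 25 called down. GH3.3, an auxin-conjugating enzyme, had 9.52, 13.5, 9.17 and 3.11 CPM in med13, against 25.03, 27.5, 20.1 and 32.3 CPM in Col-0 (log2 fold change -1.57, adjusted p = 0.00162), and GH3.1 fell at -0.90. Families taken by symbol were read beside the shares of all tested features, 7.16% up and 6.27% down. SAUR genes had 1 of 12 up and 2 down, expansins (EXPA) 1 of 16 up and 2 down. XTH genes had 2 of 26 up and 5 down, and aquaporins 3 of 26 up and 2 down. These are few genes: the SAUR up count was 0 without med13 replicate 3. The EXPA down count was 5 without med13 replicate 3 and 1 without Col-0 replicate 3. WRKY genes had 9 of 54 up and 7 down, MYB genes 15 of 84 up and 14 down and ERF genes 6 of 19 up and 3 down. Of 59 transposable elements tested, 9 were called up and 4 down, and these counts moved with the tool and the filter, to 19 and 12 with DESeq2 and to 23 and 20 with no filter on low counts.

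Among the largest called rises were also genes outside the lists. AT5G44310, of the LEA family, had 10.6, 27.7, 3.57 and 7.00 CPM in med13, with 0.166 CPM in Col-0 replicate 3 and 0 counts in its other libraries (log2 fold change 7.63, SE 1.203, adjusted p = 2.6e-04). AT1G65090 had 14.7, 68.3, 1.55 and 15.9 CPM in med13 and up to 0.176 CPM in Col-0, and AT1G47540, of the knottin family, had 10.5, 45.7, 0.932 and 18.7 CPM in med13 and up to 0.164 CPM in Col-0. All of these were highest in replicate 2 and remained called without it. VIM5, of the VIM family of methylcytosine-binding proteins, and the AP2 gene RRTF1 were chosen after their values were seen. VIM5 had 22.9, 29.6, 16.2 and 16.6 CPM in med13, against 0.176, 0.163, 0.166 and 0.492 CPM in Col-0, with no large gap among the med13 libraries (log2 fold change 6.30, SE 0.45, adjusted p = 4.6e-07). RRTF1 had 56.6, 6.002, 6.99 and 32.4 CPM in med13 and up to 0.353 CPM in Col-0.

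At the lower end stood AT4G01390, of the TRAF-like family, and its neighbour AT4G01380, of the plastocyanin-like family, on chromosome 4. AT4G01390 (chr4:570200-571595) had 0, 0, 0.155 and 0 CPM in med13, against 29.8, 24.2, 25.3 and 26.5 CPM in Col-0 (log2 fold change -8.80, SE 0.39, adjusted p = 6.2e-09). SDC:GFP wild type had 49.4 to 63.6 CPM of it, and it was called down in morc1/med13 against morc1 at -8.46. AT5G33370, a GDSL-type lipase, had 0.161, 0, 0.466 and 0 CPM in med13, against 34.5, 39.0, 33.8 and 27.7 CPM in Col-0 (log2 fold change -7.58, SE 0.39, adjusted p = 2.3e-08). It was called down in med13 against med12 too, at a log2 difference of -4.87. AT1G60750 and SP1L5 fell at -7.01 and -6.70. AT2G06845 and AT2G05015, which overlap on opposite strands of chromosome 2, had at most 1 count in med13, against 84.8 to 92.4 and 7.70 to 10.7 CPM in Col-0, but they had at most 2 counts in any of the 46 libraries outside these 4 Col-0 libraries, SDC:GFP wild type and the Col-0 libraries of the dark and light experiment included. The low level in med13 was thus shared with other wild-type libraries, and the 4 long-day Col-0 libraries were the ones that stood apart. Whether the seed stock differed was not tested, and within the 8 libraries it cannot be told apart from genotype.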

How the data were processed

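The counts were deposited by the authors as a table of whole reads per Araport11 gene or transposable element for each library. Per the methods, 50-base single-end reads were trimmed with Trim Galore, aligned to TAIR10 with STAR, stripped of duplicates with Picard MarkDuplicates and counted by strand with HTSeq 0.6.1, on a HiSeq2000 or HiSeq4000 that is not given per library. Rows that name no feature held 3.27% to 3.46% of the reads in med13 and 3.07% to 3.28% in Col-0 and were left out. Here, med13, med12 and Col-0 (12 libraries) were fitted together in R 4.3.3 with edgeR 4.0.16 (filterByExpr, TMM scaling, quasi-likelihood F-test, Benjamini-Hochberg adjustment over all features). morc1/med13 with morc1 and ddc/med13 with ddc were fitted as pairs. A call needed over 1.5-fold and an adjusted p under 0.05. Of the fits, only that of med13, med12 and Col-0 was run on simulated counts. These had the same spread in every gene, no library that stood apart and no changed gene near the floor. They thus do not stand for seed genes nearly absent from Col-0. CPM are counts per 1000000 counts on features, with TMM-scaled library sizes inside a fit and plain totals for SDC:GFP wild type. DESeq2 1.42.0, edgeR's RLE scaling and glmTreat, no filter, a fit of med13 and Col-0 only, a replicate block and leaving out each library were the alternatives. Named genes were the kinase module, the 8 largest called rises and 8 largest falls, up to 4 called members per list at a mean of 1 CPM or more and the 4 called genes with the largest share in med13 replicate 2. Any other gene was named after its values were seen. Libraries, members and lists were chosen with earlier results of these data known. The levels in SDC:GFP wild type and the motif searches were added after seeing the data. Promoter windows come from RefSeq's TAIR10.1.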

Additional observations from a re-analysis of the deposited data

Results flagged for a closer look

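Dixon's test looks for a single library far from the other 3, which chance gives in about 1 in 20 independent groups. The genes here come from the same libraries, and many were named for large folds or for their share in replicate 2. That rate is therefore no measure for them, and the flags are a description only. Of 138 groups of 4 libraries tested, 19 had such a library. In med13 replicate 2 this held for CRU2 at 152 CPM, CRU3 at 219 CPM, SESA1 at 60.02 CPM, ATS1 at 44.8 CPM, HSD5 at 34.0 CPM, FUS3 at 25.9 CPM and AT3G63040 at 24.6 CPM, each of them the highest med13 library. CRU2, ATS1, HSD5 and AT3G63040 had been named for their large share in replicate 2, so for these the choice fixed the result and it is a description only. In med13 replicate 3 it held for NRT1.8 at 6.68 CPM and CDF1 at 9.79 CPM. In Col-0 replicate 4 it held for PR5 at 14.4 CPM and for the heat shock genes HSP23.6 at 4.59 CPM, HSP17.6II at 5.24 CPM and HSP17.6A at 7.54 CPM, all high, and for AT1G60750 at 5.41 CPM, low. In Col-0 replicate 1 it held for OLEO1 at 1.23 CPM and CDF3 at 2.12 CPM, both high, and LDOX at 3.88 CPM, low. The remaining Col-0 libraries were replicate 2 for SP1L5 at 4.88 CPM and replicate 3 for AT2G05015 at 10.7 CPM.

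For 3 genes that were called up in med13 against Col-0, every library moved the other way in another background. DOG1 had a log2 fold change of -0.96 in ddc/med13 against ddc, and in morc1/med13 against morc1 GI had -1.35 and PRR9 had -2.0. The difference between backgrounds was not tested.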

How the results depend on the processing

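The 1488 up and 1304 down calls changed little with DESeq2 (1575 and 1450), RLE size factors (1470 and 1321), no filter (1704 and 1526) or med13 and Col-0 alone (1339 and 1337), and lay between 1376 and 1523 up and 1193 and 1428 down when single libraries were left out. A test against 1.5-fold itself (glmTreat) left 605 up and 598 down. Same-numbered med13 and Col-0 libraries correlated at 0.15, -0.0067, 0.095 and -0.057 in their deviations from the group means, so the numbers were not taken as pairs, and a fit with the replicate block gave 1438 and 1273 calls. MED13 kept a log2 fold change between 0.17 and 0.22 when single libraries were left out. MED12, not called in any setting, lay between -0.019 (without med13 replicate 1) and 0.039 when single libraries were left out. Of 80 named genes called, 50 were called under every setting in which they were tested, and 30 lost the call under glmTreat, 9 without med13 replicate 2, 5 with the block and 6 to 9 without single Col-0 libraries. With med13 and Col-0 alone, 4 storage genes passed the filter on low counts and all 4 were called up. Genes nearly absent from Col-0 pass that filter only through med13, so this is a description only. Under glmTreat 4 of 10 were called up. Only 4 heat shock genes were called up without Col-0 replicate 1, 2 or 3. Depth limits genes under 0.527 CPM, where 3 counts or fewer were seen in the shallowest library.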
